A study of Mus musculus with 6 samples.

Results

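The data described here are the transcripts of untreated RAW 264.7 cells, read on the 2 arrays of 0 h of a study of mica fine particles (MFP). A gene was taken as expressed where at least 1 of its probes had a detection p under 0.05 on both arrays, and the genes so found were ordered by the mean of their log2 signals. Of 19057 named genes with a probe, 8554 were detected in this way (44.9%). RAW 264.7 is a mouse leukemic monocyte macrophage line, which was established from a tumour that Abelson leukemia virus induced in a male mouse, so it is a single transformed line and not tissue macrophages. In the study the cells were placed in RPMI medium with little serum, given 100 µg/mL of MFP and collected at 0 h, 12 h and 48 h, with 2 Illumina Mouse WG-6 arrays per time point. The labels describe the 0 h cells as stimulated for 0 h, and they stand here for the cells before particles. Whether the 2 arrays per time point stand for separate cultures is not given in the sources used here. The p-values below therefore rest on the spread of these arrays alone, and that spread may be technical.

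Macrophages are phagocytes of the myeloid lineage. They are set up by the transcription factor PU.1 and kept alive by the growth factor CSF1 acting through its receptor, and they take up particles and microbes through Fc, complement, scavenger and lectin receptors. Material taken up is digested in lysosomes by cathepsins and glycosidases, while Toll-like receptors and cytosolic sensors report microbial products and lead to chemokines and cytokines. The lists used below follow these roles.

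The arrays held 45281 probes each, of which 16238 on replicate 1 and 16352 on replicate 2 were detected, and 15244 on both (33.7%). A further 994 probes were detected on replicate 1 only and 1108 on replicate 2 only. A probe counted as detected from a signal of 137.8 on replicate 1 and of 127.4 on replicate 2, and the highest signals were 68745 and 62560. The deposited signals are not scaled between arrays, and replicate 1 was the brighter array by 1.40-fold in the median of the detected probes, so that in nearly every pair of 0 h values below the first is higher than the second. At 12 h and 48 h replicate 2 was the brighter array, and most pairs of those times run the other way. Across the detected probes the log2 signals of the arrays had a Pearson r of 0.994 (a value across probes, which are not replicates), and after quantile normalization 10 of them lay more than 2-fold apart. The 5 genes with the largest difference between the arrays after that step were Pigt, Gbf1, Cbx3, Chd1 and Zbtb7a. For Pigt, which encodes a subunit of the transamidase that attaches GPI anchors, replicates 1 and 2 gave 2139 and 479 at 0 h, then 452 and 1971 after 12 h, and finally 387 and 1262 after 48 h. The high arrays of Pigt were replicate 1 at 0 h and replicate 2 at the later times, and these 3 arrays also form 1 of the 2 sets of arrays that were normalized separately in the deposited normalized table. The part of these sets in the values of single genes was not tested beyond a fit with the set as a block.

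**Figure D1:**
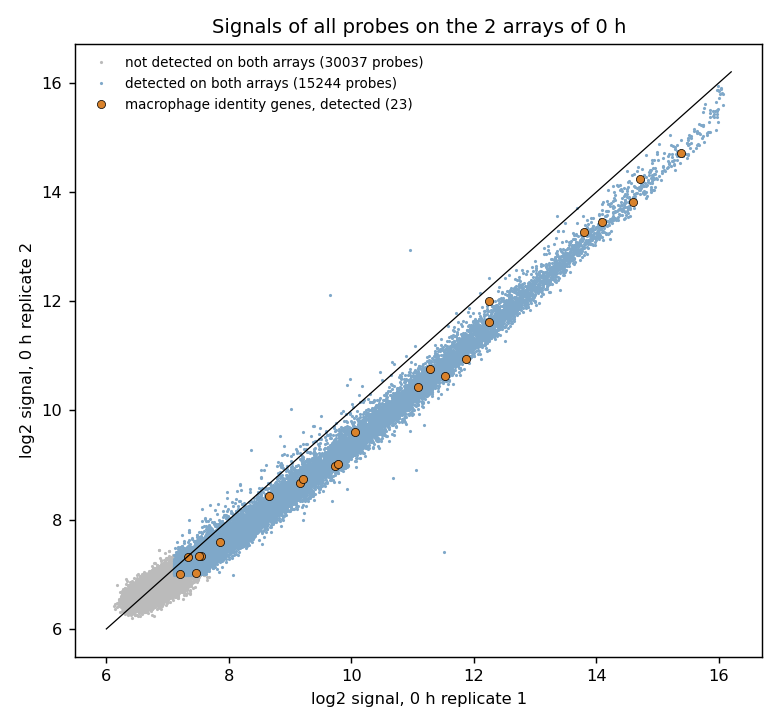
Log2 signal of every probe on replicate 1 (x axis) and replicate 2 (y axis) of 0 h, with detected probes in blue, the others in grey and the 23 detected macrophage identity genes as orange points. Most points lie below the line of equal signal, since replicate 1 was brighter by 1.40-fold in the median.

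Signals of different probes depend on the probe as well as on the transcript, so the order that follows is an order of signals and not of transcript amounts. The gene with the highest mean signal was Mif, which encodes macrophage migration inhibitory factor, at 67317 on replicate 1 and 61101 on replicate 2. It was followed by the elongation factor Eef1a1 (67066 and 60786) and by Fth1, the heavy chain of the iron store ferritin (64588 and 62560). Of the other genes among the 20 highest, Rpl41, Rplp1, Rps29, Rps12, Rpl38, Rps2 and Rpl9 were of the ribosome. The rest were the metallothionein Mt1, Ybx1, the ATP synthase gene Atp5b, the ATP synthase inhibitor Atpif1, Ppia, the tubulin Tuba1b, the nucleolar chaperone Npm1 and the histone genes H2ac24, H2ac10 and H2ac20. The histone genes are near-identical copies, and a probe of one can read the others. Without the housekeeping list and the ribosomal protein genes, the 10 highest were Mif, Fth1, Mt1, Ybx1, Atp5b, H2ac24, Atpif1, H2ac10, Npm1 and H2ac20.

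Ribosomal protein genes made up 24 of the 100 highest signals, and 12 belonged to the macrophage lists. These 12 were Mif, Fth1, Lyz1, Lpl, Laptm5, Gpnmb, Gpx1, Ctsb, Plau, B2m, Lgals3 and Ccl9. Lyz1 and Lyz2 encode near-identical lysozymes, and only 1 of the 3 probes of Lyz1 gave a signal, so the lysozyme signal cannot be divided between them. The median signal of all detected genes was 736, and 1361 of them (15.9%) lay under 200, near the detection limit, against 345 (4.03%) over 10000.

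Of the 453 genes of the 20 macrophage lists that had a probe, 284 were detected (62.7%), beside 44.9% of all named genes and 27 of 179 genes (15.1%) on lists of other cell types that no macrophage list holds. The median signal of the 284 was 750, close to that of all detected genes. As drawn, these lists differed from the background in how many members were detected and little in how bright those were. The lists were chosen with earlier results of these data known, so the shares describe them and test nothing. The shares ran from 85.0% (17 of 20) for iron handling and 84.2% (32 of 38) for lysosomal hydrolases down to 33.3% (7 of 21) for chemoattractant receptors and 20.0% (3 of 15) for complement components. A gene that was not detected gives no evidence that its transcript was missing. Tpt1 (126 and 120) and Canx (105 and 109), which most cells express, were not detected on their single probes either.

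**Figure D2:**
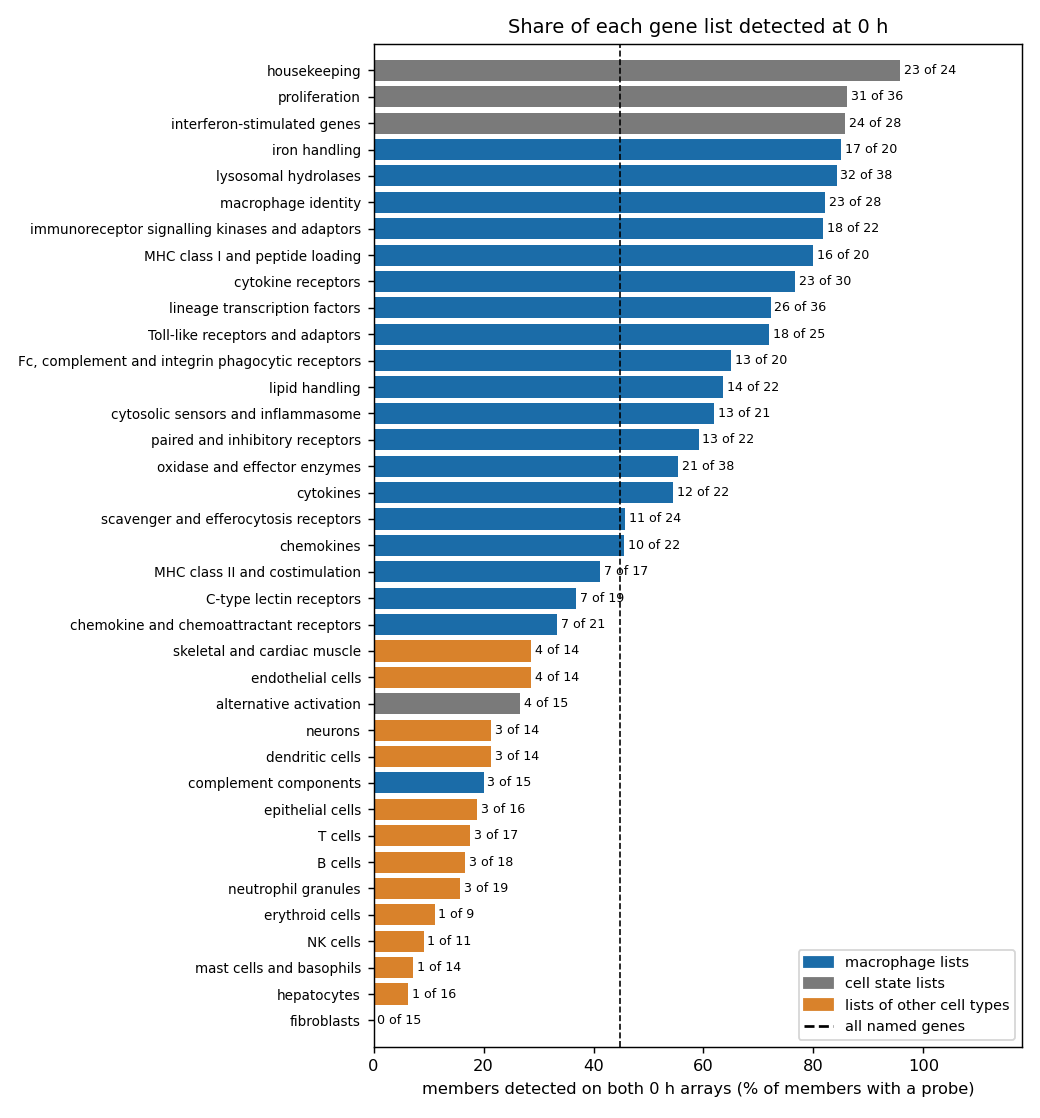
Percent of the members with a probe that were detected on both 0 h arrays, for each list (horizontal axis in percent, numbers beside the bars give detected members of members with a probe), with macrophage lists in blue, cell state lists in grey and lists of other cell types in orange. The broken line marks the 44.9% of all named genes. Lists of other cell types reached at most 28.6%, and 3 macrophage lists besides complement stayed under the line.

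Of the macrophage identity genes, 23 of 28 were detected (82.1%). Laptm5, a lysosomal membrane protein of blood cells, had the highest signal of the list, 42656 on replicate 1 and 26734 on replicate 2. The galectin Lgals3 (26712 and 19436), the lysozyme Lyz2 (24717 and 14493), the lipopolysaccharide co-receptor Cd14 (17443 and 11210) and the actin-binding Coro1a (14294 and 9840) came next. All 5 stood far above the detection limits on both arrays.

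The CSF1 receptor Csf1r, which defines the lineage, read 2968 and 1579. The adaptor Tyrobp (4849 and 4130), the CD47 receptor Sirpa (4856 and 3132), the tetraspanin Cd53 (3734 and 1956), Cd52 (2491 and 1726) and the fractalkine receptor Cx3cr1 (2188 and 1382) lay in the same range. PU.1 itself, encoded by Spi1, was read at 880 and 522, the F4/80 antigen Adgre1 at 855 and 504 and the high-affinity IgG receptor Fcgr1 at 591 and 429. These defining genes were thus detected on both arrays and fit the labelled cell type. Csf1r stood at rank 2103 of the 8554 detected genes. Csf2ra (1069 and 776), Irf8 (570 and 408), Ctss (405 and 346) and Ptprc, the CD45 antigen (232 and 194), were also clear of the limit.

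Other classical markers were barely above it. Mpeg1 (perforin-2) read 186 and 161, Aif1 (IBA1) 183 and 161, Clec7a (dectin-1) 162 and 160, Itgam (CD11b) 177 and 130, and Csf2rb 147 and 129. For Itgam the detection p was 0.00321 on replicate 1 and 0.0417 on replicate 2, so its call rests on the threshold. Cebpa (122 and 131), Mertk (102 and 105), Ccr2 (95.4 and 98.1), Fcer1g (95.4 and 97.7) and Cd48 (91.7 and 90.9) were not detected on both arrays, and Cebpa passed on replicate 2 only. Ccr2, the receptor that draws monocytes out of the marrow, was at background on both of its probes. Cd68 was not analysed here.

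**Figure D3:**
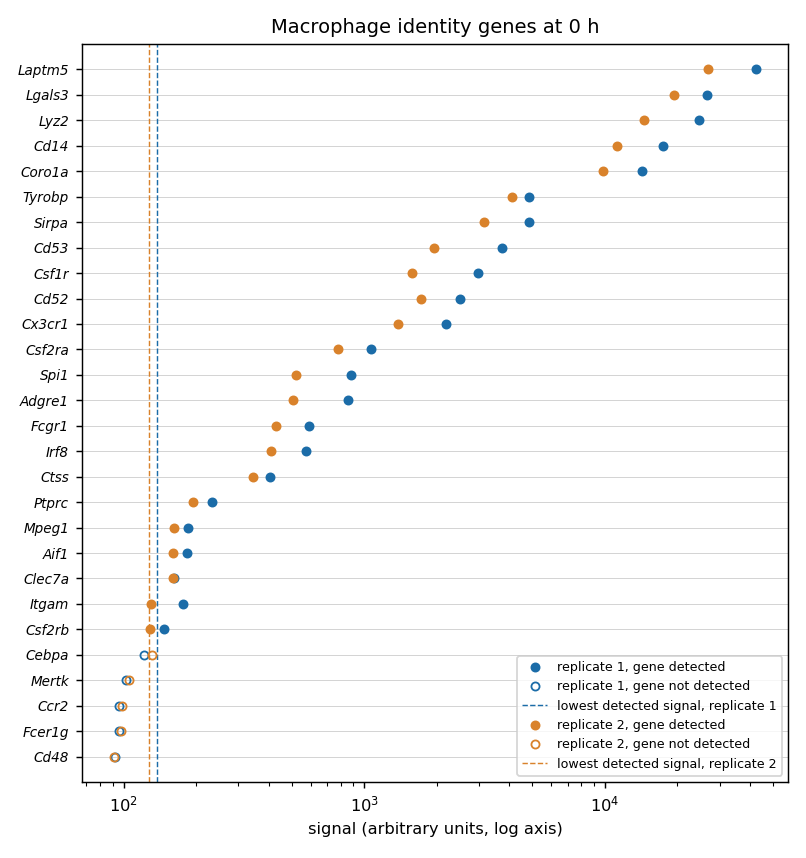
Signals of the 28 macrophage identity genes with a probe on replicate 1 (blue) and replicate 2 (orange) of 0 h, on a log axis, filled where the gene was detected and open where it was not. Broken lines mark the lowest detected signals, 137.8 and 127.4. The signals of detected members run without a gap from the detection limit at Csf2rb up to Laptm5.

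Among transcription factors of the lineage, 26 of 36 were detected (72.2%). Cebpb, which acts in inflammatory activation, had the highest signal (12638 and 9067), followed by Ets2 (5799 and 3411), Irf5 (3964 and 2471), Ikzf1 (3509 and 2186), Klf6 (2627 and 2365) and Rela (2989 and 2061). At the low end stood Runx1 (178 and 161) and Mitf (181 and 139). The factors not detected were Pparg, Irf4, Cebpa, Rxra, Myb, Tfeb, Spic, Gata6, Maf and Tfec, among them Gata6 of peritoneal and Spic of red pulp macrophages, with signals between 95.6 and 139 on the 2 arrays.

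PU.1 binds sites with a core that includes the letters GAGGAAGT. These letters, on either strand, were searched for in RefSeq promoter windows of GRCm38.p6, from 250 bases before to 50 bases after a gene's start. They were found for 997 of 27025 genes with a window (3.69%) and for 269 of the 7034 detected named genes that had one (3.82%). Of the detected macrophage list genes 14 of 214 held them (6.54%), and of those not detected 14 of 137 (10.2%). The letters therefore did not separate the detected from the undetected members of the macrophage lists. Sequences are shown for the 3 detected and the 3 undetected members in which the letters lie closest before the start, each as the 100 bases before it, 5′ to 3′ on the gene's strand, with the match in capitals.
Itgav (detected, GRCm38.p6 chr2:83724297-83724396, + strand): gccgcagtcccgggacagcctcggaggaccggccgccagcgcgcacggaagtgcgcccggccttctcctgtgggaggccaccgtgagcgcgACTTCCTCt
Vav1 (detected, GRCm38.p6 chr17:57279000-57279099, + strand): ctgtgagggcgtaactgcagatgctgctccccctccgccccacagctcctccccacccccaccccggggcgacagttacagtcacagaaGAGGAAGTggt
Cxcr3 (detected, GRCm38.p6 chrX:101734148-101734247, - strand): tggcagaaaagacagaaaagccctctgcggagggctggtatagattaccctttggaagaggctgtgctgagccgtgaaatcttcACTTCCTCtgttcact
Pf4 (not detected, GRCm38.p6 chr5:90772335-90772434, + strand): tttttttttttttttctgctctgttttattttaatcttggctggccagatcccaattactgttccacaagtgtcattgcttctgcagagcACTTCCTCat
Tlr1 (not detected, GRCm38.p6 chr5:64933559-64933658, - strand): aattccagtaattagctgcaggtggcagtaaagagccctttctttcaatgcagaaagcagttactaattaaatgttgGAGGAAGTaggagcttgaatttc
Pycard (not detected, GRCm38.p6 chr7:127993868-127993967, - strand): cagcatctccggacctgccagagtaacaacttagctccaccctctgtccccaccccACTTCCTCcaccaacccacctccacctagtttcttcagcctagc
In Vav1 and Tlr1 the match reads along the gene's strand, and in the other 4 on the opposite strand. Itgav (integrin αV), Vav1 (a signalling protein of blood cells) and Cxcr3 (a receptor of interferon-induced chemokines) were detected, at 683 and 449, 8518 and 5339, and 1015 and 618. Pf4 (platelet factor 4), Tlr1 (a partner of TLR2) and Pycard (the inflammasome adaptor ASC) were not, at 101 and 96.8, 144 and 120, and 119 and 125. A match of letters is not a bound site, and binding was not measured.

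Receptors through which particles can enter were expressed unevenly. Of the Fc, complement and integrin receptors 13 of 20 were detected (65.0%). All 4 IgG receptors were detected: the inhibitory Fcgr2b at 2017 and 1161, the activating Fcgr3 at 1019 and 663, Fcgr4 at 1006 and 557 and Fcgr1 at 591 and 429, with the neonatal receptor Fcgrt at 705 and 501. The integrin chains Itgb5 (1257 and 859), Itga5 (1378 and 693) and Itgb7 (1090 and 630) lay in the same range. The chains of complement receptor 3 were low, with Itgb2 at 368 and 231 and Itgam at 177 and 130. Not detected were Fcer1g, the γ chain through which activating Fc receptors signal, the anaphylatoxin receptors C5ar1 and C3ar1, the complement receptor Vsig4, Itgax, Itga4 and Itgb3. Fcer1g was at background on its only probe on all 6 arrays (83.4 to 101), beside clear signals of the receptors it serves.

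Of scavenger and efferocytosis genes 11 of 24 were detected (45.8%), about the share of all named genes. Where every probe of a gene had to be detected, 3 were left. The bridging protein Mfge8, which tethers dying cells to integrins, was the brightest (19778 and 11450), followed by Stab1 (2322 and 1599), Msr1 (scavenger receptor A, 1638 and 960), Scarb2 (777 and 545), Colec12 (539 and 414) and Cxcl16 (362 and 234). The TAM receptor Axl was detected at 326 and 251, and its relatives Mertk and Tyro3 were not. Marco, Cd36, Cd163, Stab2, Olr1, Scarf1, Cd5l, Havcr1, Megf10, Adgrb1 and the ligand Gas6 were not detected either, with signals from 90.9 to 135. MARCO, a scavenger receptor known for binding silica particles in alveolar macrophages, read 130 and 112.

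C-type lectin receptors were detected in 7 of 19 cases (36.8%), under the background share. Clec4d (7667 and 4282) and Clec4e (Mincle, 2115 and 1495), which recognise mycobacterial glycolipids, and Clec5a (2156 and 1511) were brightest. The protein of Clec5a pairs with the adaptor DAP12, which Tyrobp encodes. Clec4a3 (720 and 447) and Mgl2 (352 and 230) followed, and Clec7a and Clec10a (147 and 129) were at the limit. The mannose receptor Mrc1 (134 and 111) was not detected, nor were Clec4n, Clec1b, Cd209a, Cd209b, Clec4f, Clec12a, Clec4a1, Clec4a2, Clec9a, Ly75 and Clec2d.

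**Figure D4:**
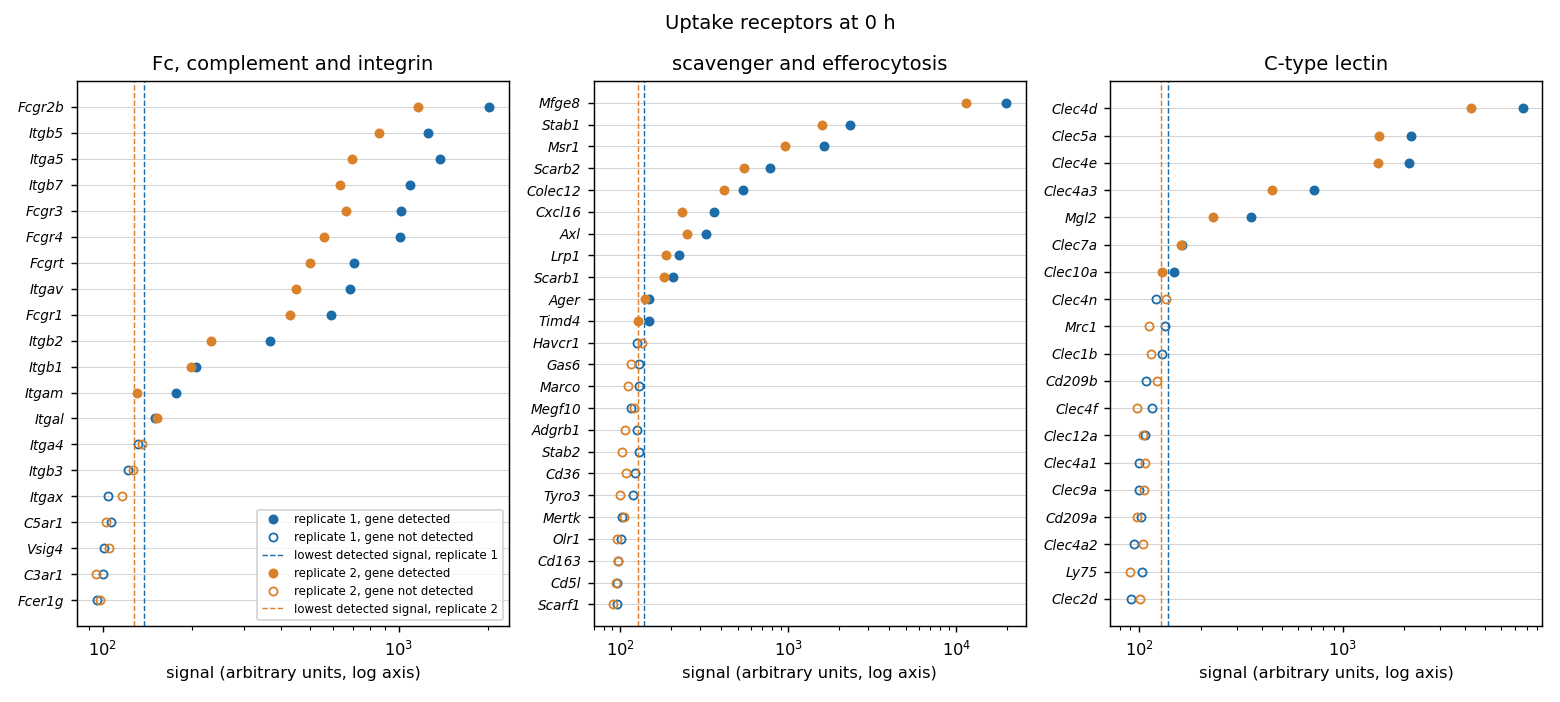
Signals at 0 h of the Fc, complement and integrin receptors (left), the scavenger and efferocytosis genes (middle) and the C-type lectin receptors (right), for replicate 1 (blue) and replicate 2 (orange) on log axes, filled where the gene was detected. Broken lines mark the lowest detected signals. Detected members were 13 of 20, 11 of 24 and 7 of 19.

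The Toll-like receptor list had 18 of 25 members detected (72.0%). The lipopolysaccharide receptor was complete, with Tlr4 at 2094 and 1093, Ly96 (MD-2) at 1406 and 918 and Cd14 at 17443 and 11210. Tlr2, the receptor of lipoproteins, was at 13550 and 7724, and its partner Tlr6 at 711 and 472. Of the endosomal receptors Tlr7 (3185 and 1758) and Tlr13 (2790 and 1720) were detected together with their chaperone Unc93b1 (6651 and 3921), whereas Tlr3, Tlr8 and Tlr9 were not. Tlr5, Tlr11 and Tlr12, which recognise proteins of bacteria and protozoa, and Tlr1 were also at background on both arrays or passed on 1 of them only. The adaptor Myd88 read 8569 and 4848, and the radioprotective Cd180 and its partner Ly86 read 2137 and 1229, and 4035 and 2504.

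Of cytosolic sensors and inflammasome genes 13 of 21 were detected (61.9%). Casp1, which matures IL-1β and IL-18, read 8519 and 5059, the DNA sensor Cgas 6696 and 4048 and the pore former Gsdmd 1850 and 1324. Mavs (835 and 683), Dhx58 (895 and 608) and Casp4 (849 and 496) followed, and Nlrp3 was at the limit (158 and 143). Pycard links NLRP3 to caspase-1 and is known to be lacking from RAW 264.7 cells. It was not detected on either of its probes, of which the brighter read 119 and 125, and both stayed at background at the later times. The inflammasome substrate Il18 was detected (548 and 302) and Il1b was not (109 and 99.7). Nlrc4, Nlrp1a, Mefv, Nod1, Nod2 and Ifih1 were not detected on both arrays, and Nod2 passed on replicate 1 only (173 and 119).

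Cytokine receptors were detected in 23 of 30 cases (76.7%). The TGF-β receptor chains had the highest signals, Tgfbr1 at 9289 and 5190 and Tgfbr2 at 6059 and 4040, before Csf1r (2968 and 1579), Il13ra1 (1369 and 764), Csf2ra (1069 and 776) and Il6ra (790 and 752). Both chains of the interferon-γ receptor were detected, Ifngr1 (676 and 473) and Ifngr2 (520 and 542). For other receptors only part of the complex was. Ifnar2 (369 and 349) was detected without Ifnar1, and Il6ra and Il13ra1 without the chains that signal with them, Il6st and Il4ra. Those 3 undetected chains read between 87.8 and 120 on their probes. Il1r2, Il18r1, Il21r and Lifr were not detected.

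Chemoattractant receptors were among the least represented groups, with 7 of 21 detected (33.3%). P2ry6, a receptor of the nucleotide UDP that triggers phagocytosis in microglia, stood above the rest at 7037 and 4006. It was followed by Cx3cr1 (2188 and 1382), Cxcr3 (1015 and 618), the ATP-gated channel P2rx4 (493 and 329), Ptafr (249 and 212) and Cxcr4 (209 and 172). The receptors of inflammatory chemokines Ccr1, Ccr2 and Ccr3 were not detected, and neither were Ccr7, Ccr9, Ccrl2, Cxcr1, Cxcr2, Cxcr5, Fpr2, Cmklr1, Ltb4r1, P2ry2 and P2ry12. Ltb4r1, the leukotriene B4 receptor, lay just outside the threshold (136 and 128, with p of 0.0577 and 0.0449).

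Chemokines divided into a bright and a dim group. Ccl9 (28777 and 17742), Ccl4 (22162 and 13030) and Ccl3 (16972 and 11287), which attract monocytes and lymphocytes, were high on both arrays. The other 7 detected chemokines lay below 600, with Ccl2 at 532 and 407, Cxcl2 at 406 and 307 and Cxcl16 at 362 and 234. Cxcl10, Ccl5, Cxcl14 and Ccl7 lay between 143 and 221. In all, 10 of 22 were detected (45.5%), near the background share. Ccl6, Ccl8, Ccl12, Ccl17, Ccl22, Ccl24, Cxcl1, Cxcl3, Cxcl9, Cxcl11, Pf4 and Ppbp were detected on none of the 6 arrays.

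Of cytokines and growth factors 12 of 22 were detected (54.5%). After Mif, the growth factor progranulin (Grn, 16824 and 9023) was highest, and Tnf, the main early cytokine of macrophages, read 2999 and 1490. Tgfb1 (1516 and 924), Vegfa (1254 and 792) and Osm (1017 and 638) followed. Il1a, Il1b, Il6, Il10, Il12a, Il27, Ifnb1, Csf1, Csf2 and Lif were not detected, with signals from 84.8 to 116. The interleukin genes Il18 (548 and 302), Il15 (390 and 233) and Il23a (145 and 143) were detected, the last at the limit.

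Effector enzymes were detected in 21 of 38 cases (55.3%). The brightest were Lyz1 (46969 and 33527), the glutathione peroxidase Gpx1 (37297 and 23690), urokinase (Plau, 25978 and 21273), Prdx1 (20893 and 17609), Lyz2 and Sod1 (18240 and 12059). Of the phagocyte NADPH oxidase, the membrane subunit Cyba (17147 and 10519) and the cytosolic Ncf4 (9197 and 4793), Rac2 (3468 and 1973) and Ncf1 (647 and 487) were detected. The catalytic subunit Cybb was not, on either of its probes (96.7 and 103 on the brighter). Of the leukotriene pathway Alox5ap (16770 and 9947), Alox5 (353 and 260) and Ltc4s (339 and 237) were detected, and Lta4h, Pla2g4a and Alox15 were not. The inducible enzymes Nos2 (131 and 109), Arg1 (101 and 112), Ptgs2 (104 and 110) and Ido1 (111 and 106) were not detected, and neither were Arg2, Pla2g7, Sphk1, Chil3, Chit1, Mmp8, Mmp12, Mmp13 and Mmp14. Acod1, which makes itaconate, was detected at 406 and 303 and Mmp9 at 149 and 142.

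Of the lysosomal hydrolases 32 of 38 were detected (84.2%), or 17 where every probe of a gene had to be detected. The brightest were the cysteine protease Ctsb (28631 and 26220), β-glucuronidase (Gusb, 22602 and 15695), the saposin precursor Psap (19660 and 12043), acid lipase (Lipa, 14062 and 9160), Lgmn (12140 and 8565) and acid ceramidase (Asah1, 12817 and 7512). The cathepsins spanned a wide range of signals. Besides Ctsb, Ctse read 5175 and 2811 and Ctsz 4173 and 2464, whereas Ctss (405 and 346), Ctsl (361 and 280), Ctsk (293 and 227), Ctsd (248 and 184) and Ctsf (199 and 149) read under 500. Ctsc, Ctsh, Ctso, Ctsw, Acp5 and Gla were not detected on both arrays, and Gla passed on replicate 2 only (116 and 175).

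Presentation genes differed by class. Of MHC class I and peptide loading genes 16 of 20 were detected (80.0%), with B2m at 28496 and 18424, the chaperone Pdia3 at 22554 and 14230, H2-D1 at 13959 and 10066, Calr at 4494 and 3818, H2-T23 at 3502 and 2503 and H2-M3 at 3278 and 2041. Probes of class I heavy chains can read related family members. H2-Q10, Erap1, Canx and Mr1 were not detected. Of class II and costimulation genes 7 of 17 were detected (41.2%). The invariant chain Cd74 read 4374 and 2484, but the chains it accompanies, H2-Aa (93.1 and 95.0), H2-Ab1 (125 and 121) and H2-Eb1 (113 and 103), and their master regulator Ciita (86.5 and 100) were not detected. H2-DMa was detected at 265 and 206 without H2-DMb1 and H2-DMb2, and H2-Oa and H2-Ob were not. The costimulatory genes Cd40 (376 and 251), Cd274 (PD-L1, 312 and 247), Cd80 (271 and 188), Cd86 (166 and 151) and Icosl (162 and 135) were detected at low signals, and Pdcd1lg2 and Tnfsf4 were not.

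The kinases and adaptors below the immune receptors were detected in 18 of 22 cases (81.8%). Vav1 (8518 and 5339), Plcg2 (7515 and 5008), the phosphatase Ptpn6 (7791 and 4783), Dok2 (6827 and 4665), Tyrobp and the kinase Btk (5494 and 3240) led. Syk, the kinase that binds the phosphorylated tails of Fc receptor chains, was not detected on its probe (124 and 115), and Src, Grb2 and Fcer1g were not either. Grb2 lay just outside the threshold, with a p of 0.00534 on replicate 1 and 0.0588 on replicate 2. Of the paired and inhibitory receptors 13 of 22 were detected (59.1%). Trem2, a lipid receptor that signals through DAP12, read 13366 and 7404. Sirpa, its ligand Cd47 (2678 and 1561), Lilrb4a (2432 and 1146), Cd33 (1368 and 715) and Cd300a (423 and 331) came next, and Trem1 (141 and 158) was at the limit. Lilra5, Cd300ld, Cd200r1, Treml4, Siglece, Siglec1, Siglecf, Pilra and Pilrb1 were not detected.

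Lipid genes were detected in 14 of 22 cases (63.6%). Lipoprotein lipase (Lpl, 50600 and 28792) and Gpnmb (35250 and 27042) were among the 50 highest signals, and Lipa (14062 and 9160), Npc1 (7822 and 4965), Cyp27a1 (1769 and 1168) and Npc2 (1045 and 719) followed. The lipoprotein Apoe, abundant in many tissue macrophages, was barely detected (139 and 130). Of the cholesterol exporters Abcg1 was detected (716 and 459) and Abca1 was not (92.9 and 94.0). Pparg, Cd36, Fabp4, Apoc1, Ch25h, Mgll and Hsd11b1 were not detected. Iron genes were detected in 17 of 20 cases (85.0%), led by the ferritin chains Fth1 and Ftl1 (20070 and 13607), the transferrin receptor Tfrc (16849 and 9758), the phagosomal metal transporter Slc11a1 (12982 and 7414) and the biliverdin reductases Blvra (11223 and 6597) and Blvrb (7777 and 3995). The exporter ferroportin (Slc40a1) read 3327 and 1834, and Hamp, Steap4 and Cd163 were not detected. Of complement components 3 of 15 were detected (20.0%), and properdin (Cfp, 21657 and 14424) was the only bright one, before the regulators Cd59a (477 and 382) and Cr1l (445 and 341). C1qa, C1qb and C1qc, which tissue macrophages are known to make, read between 91.8 and 124 and were not detected, and neither were C1ra, C1s1, C2, C4b, Hc, Cfb, Serping1, Cd55 and Cd46.

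Lists of cell states gave the setting of these signals. Interferon-stimulated genes were detected in 24 of 28 cases (85.7%), with Ifitm3 (42904 and 25878), Irgm1 (15413 and 11264), Ifitm2 (7396 and 4064), Usp18 (2900 and 1942), Eif2ak2 (2805 and 1664) and Oasl1 (1478 and 869) highest. Ifit1, Mx1, Gbp5 and Ifi204 were not detected. Proliferation genes were detected in 31 of 36 cases (86.1%). The replication helicase genes Mcm4 (20083 and 11841) and Mcm5 (17091 and 11605), Ccnd1 (14393 and 10188), Cdk2 (10318 and 5863), Cdc20 (7869 and 5262) and Rrm1 (8925 and 4485) led. The median signal of the 31 detected members was 3354, beside 736 for all detected genes. Myc (107 and 103), Cdkn2a (124 and 114), Ccna2, Ccnb2 and Bub1 were not detected on their probes. The housekeeping list was detected in 23 of 24 cases (95.8%).

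Markers of other cell types were mostly at background. Lists of fibroblasts (0 of 15), hepatocytes (1 of 16), mast cells and basophils (1 of 14) and NK cells (1 of 11) had the lowest shares, and the T cell receptor genes Cd3d, Cd3e, Cd3g and Cd247, the B cell genes Ms4a1, Cd79b and Pax5, the collagens and Alb were not detected. Most of the members that were detected lay at the limit. These were Gata3, Ebf1, Gfi1, Hdc, Cldn7, Tjp3, Cdh1, Kdr, Eng, Syp, Camk2a, Map2, Hnf4a, Mylpf, Myog and Des, with signals from 129 to 198, and Csf3r at 191 and 162.

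A few of these markers were bright. Cd72, known from B cells, read 10581 and 5551. Cd8b1, the β chain of the T cell co-receptor CD8, read 8484 and 5001 on 1 of its 3 probes and was at background on the others, and Cd8a was not detected. Foxp3, the factor of regulatory T cells, read 4077 and 3161 on the brightest of its 4 probes, 159 and 134 on the next, and was not detected on the remaining ones. Tnni2, a troponin of fast skeletal muscle, read 3703 and 2736 on its only probe, without detected Acta1, Ckm or Tnnt3. Tcf4 (4417 and 2524), Tal1 (762 and 479), Bst2 (711 and 379), Irf8, Cebpe (509 and 328), Blnk (471 and 328), Egfl7 (377 and 261), Flt1 (376 and 311) and Prf1 (355 and 355) lay between. Whether these probes read the transcript they are named for was not tested. The Y-linked genes Eif2s3y (1264 and 832), Kdm5d (247 and 196) and Uty (165 and 146) were detected and Xist (132 and 120) was not, as in a line from a male mouse.

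Calls near the limit depend on the probe and the threshold. Of the macrophage list genes 244 had several probes, and in 109 of them some probes were detected and others not, against 69 with all and 66 with no probe detected. The list members just inside the threshold were Cp (155 and 127), Timd4 (149 and 127) and Treml2 (160 and 129), with a higher p of 0.0491, 0.0491 and 0.0449. Just outside lay Ltb4r1, Grb2 and the collagenase Mmp13 (139 and 125).

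The later arrays show the signals of these genes after 12 h and 48 h with MFP. The series has no untreated arrays at those times. An effect of the particles therefore cannot be told apart from one of time in culture. After quantile normalization of the probes detected on all 6 arrays, 267 of the 284 detected macrophage list genes could be fitted with limma. The remaining 17 were not detected on every array. At 12 h of MFP 69 of the 267 rose (25.8%) and 25 fell (9.36%), beside 10.4% and 8.85% of all 9984 features at an adjusted p under 0.05. At 48 h 147 rose (55.1%) and 41 fell (15.4%), beside 26.3% and 26.4% of all features. The median log2 change at 48 h was 0.43 for the 267 and 0.01 for all features. Since the lists were chosen with earlier results of these data known, these shares are descriptions as well. With each array scaled to its 75th percentile instead, 14 rose and 4 fell at 12 h, beside 139 and 19 of all 9984 features. At 48 h 98 rose and 27 fell with that scaling, beside 1067 and 1466 of all features. Over all features the rises made up 88% of the calls at 12 h where the fit above gave 54%. In the deposited normalized table no gene passed at 12 h by limma, with 34 of the 267 and 299 of all features at an unadjusted p under 0.05. At 48 h 46 of the 267 rose and 6 fell in it, beside 310 and 305 of all features. That table was fitted without a block for its 2 sets of arrays. Without replicate 1 or replicate 2 of 0 h, or replicate 2 of 12 h, 59, 53 and 58 genes changed at 12 h in place of 94. A fit that blocks on the array sets called 110 rises and 46 falls at 12 h, beside 1957 and 2035 over all features.

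The counts of single lists at 48 h are given as descriptions, beside the 26.3% of all features that rose and the 26.4% that fell, and differences between lists were not tested. Of 32 tested lysosomal hydrolases 26 rose (81.2%) and 1, Ctse, fell. Of the 7 class II and costimulation genes 6 rose (85.7%), and of 13 Fc, complement and integrin receptors 9 rose (69.2%) and 2 fell. Of 22 macrophage identity genes 16 rose (72.7%) and 3, Csf1r, Cd14 and Coro1a, fell. Cx3cr1, an identity gene too, was not fitted, and it read 110 and 138 at 48 h after 2188 and 1382 at 0 h. The fit needs detection on all 6 arrays, so a gene that falls to background leaves the counts of its list. With detection required at 0 h only, 150 of 284 macrophage list genes rose and 46 fell at 48 h, beside 2703 and 2718 of 10617 features. Csf1r went from 2968 and 1579 at 0 h to 817 and 1214 at 48 h, a log2 change of −0.88 ± 0.14 (SE, limma adjusted p = 9.87e-04). Of 18 Toll-like receptor genes 7 rose (38.9%) and 5 fell (27.8%), and of 21 cytokine receptors 8 rose (38.1%) and 5 fell (23.8%), nearer the shares of all features. Of 31 proliferation genes 3 rose and 26 fell (83.9%). Fewer transcripts per cell and fewer cells of a kind cannot be told apart in such RNA.

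Among the 267 macrophage list genes that could be fitted, the 5 largest rises at 48 h were those of Cd274, Casp4, Cp, Fcgr4 and Slc40a1. Cd274, the ligand of the inhibitory receptor PD-1, read 312 and 247 before particles, 668 and 909 by 12 h and 2382 and 3156 by 48 h. All later arrays were above both 0 h arrays, and the log2 change at 48 h was 3.52 ± 0.09 (SE, n = 2 arrays per time point, limma adjusted p = 4.4e-07). Casp4, the sensor of intracellular lipopolysaccharide, went from 849 and 496 to 3663 and 6273 at 48 h (log2 change 3.11 ± 0.11, adjusted p = 8.87e-07). Fcgr4 went from 1006 and 557 to 4177 and 6398 (3.01 ± 0.12), and the iron exporter Slc40a1 from 3327 and 1834 to 11674 and 18193 (2.78 ± 0.10). Cp, a plasma ferroxidase that lay just above the limit at 0 h, went from 155 and 127 to 948 and 1056 (3.07 ± 0.13), and its change at 12 h did not pass (0.08 ± 0.13, adjusted p = 0.725). With normexp background correction the change of Cp at 48 h was 4.43 and that of Cd274 4.04, so the size and the order of these rises depend on the background.

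The 5 largest falls among the same 267 genes, which leaves out genes such as Cx3cr1 that were no longer detected on every array, were those of Ctse, Tfrc, Gpx1, P2ry6 and Il6ra. The aspartic protease Ctse went from 5175 and 2811 before particles through 2212 and 3446 (12 h) to 603 and 833 (48 h), a log2 change of −2.20 ± 0.10 at 48 h (adjusted p = 1.77e-06). Tfrc had fallen by 12 h already, to 2762 and 4252, and read 2402 and 3738 at 48 h (log2 change −1.98 ± 0.09 and −1.88 ± 0.09). Gpx1 went from 37297 and 23690 to 6437 and 9806 at 48 h (−1.67 ± 0.08), P2ry6 from 7037 and 4006 to 1333 and 2108 (−1.44 ± 0.10) and Il6ra from 790 and 752 to 239 and 262 (−1.44 ± 0.16). The 48 h arrays of these genes lay below both 0 h arrays.

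**Figure D5:**
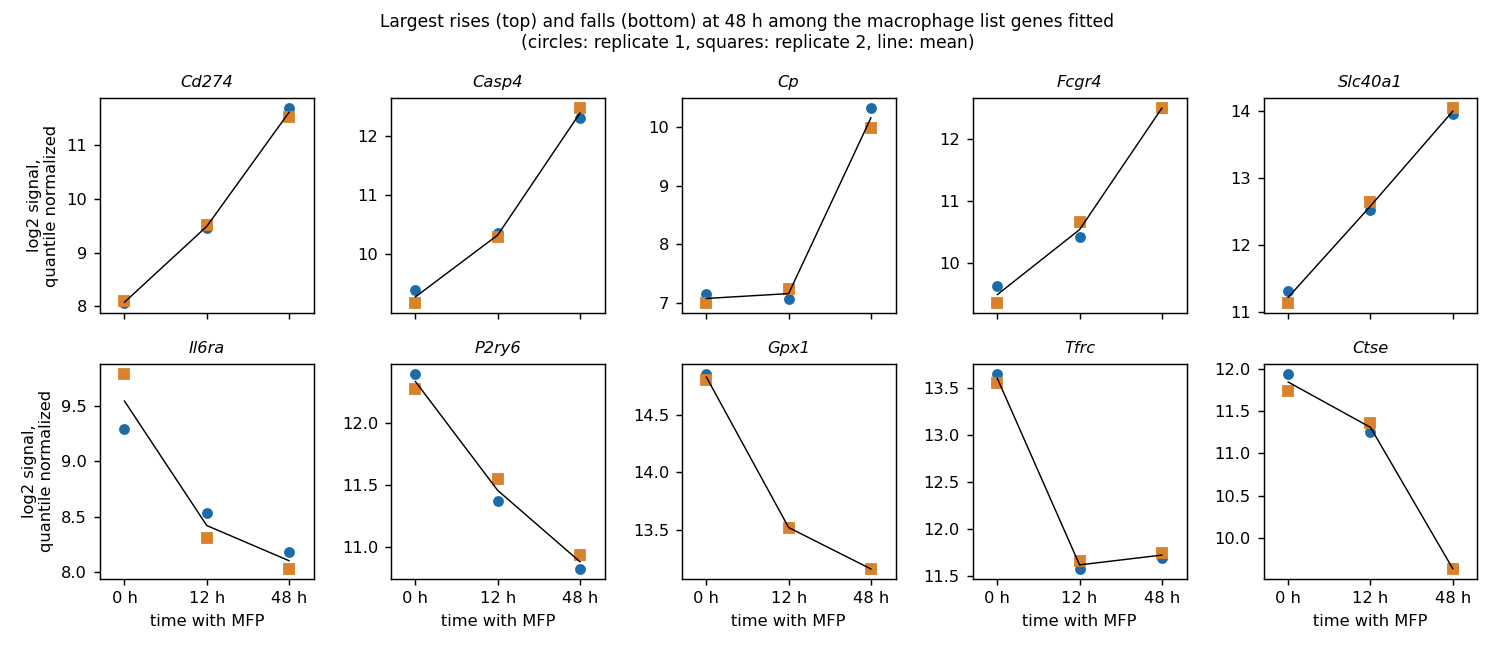
Log2 signals after quantile normalization on each array at 0 h, 12 h and 48 h (circles replicate 1, squares replicate 2, line the mean) for the 5 genes with the largest rise (top) and the 5 with the largest fall (bottom) at 48 h among the 267 macrophage list genes detected at 0 h and fitted, that is, detected on all 6 arrays. Changes at 48 h run from 3.52 for Cd274 to −2.20 for Ctse.

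Some genes passed below detection later. Of the 284 genes 9 (3.17%) were no longer detected on both arrays at 12 h, beside 2.65% of all detected genes (227 of 8554), and 15 (5.28%) at 48 h, beside 3.67% (314 of 8554). These shares lie near those of all genes. Most of the 15 were near the limit at 0 h, and Cx3cr1 was not. Its probe read 2188 and 1382 before particles, 454 and 471 by 12 h and 110 and 138 by 48 h, of which only the last passed detection. Ccl2, the ligand of CCR2, held at 485 and 538 at 12 h and read 101 and 113 at 48 h, which is background. Scarb1 (207 and 182 at 0 h) and Cxcl10 (221 and 171) were also lost.

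Of the 169 macrophage list genes not detected at 0 h, 125 were detected on none of the 6 arrays. By 12 h 13 had become detected on both arrays (7.69%, beside 3.92% of all 10503 undetected genes), and by 48 h 25 had (14.8%, beside 5.4%). The TAM receptor ligand Gas6 had the highest signal of the 25, going from 129 and 117 through 177 and 211 (12 h) to 525 and 737 (48 h). H2-Eb1 reached 162 and 230 at 48 h, Csf1 212 and 224, the decoy receptor Ccrl2 219 and 289, Cd200r1 182 and 213, Src 158 and 193 and Gla 395 and 214. The other 18 stayed closer to the limit, with 204 as their highest signal at 48 h. The lowest detected signals were 114.2 on replicate 1 and 128.9 on replicate 2 at 48 h, against 137.8 and 127.4 at 0 h. A gene could thus become detected without a higher signal, and Havcr1 and Itga4 were higher on neither replicate. Fold changes are not given for these genes, since their 0 h values are background.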

How the data were processed

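RNA of RAW 264.7 cells was hybridised to 6 single-colour Illumina Mouse WG-6 beadchips. The authors exported probe signals from GenomeStudio, and the deposited signals are linear intensities with no normalization between arrays and no background subtraction. Beside each stands the detection p-value that the authors deposited, which ranks the probe among the negative control probes of its array in steps of 1 in 936. A second deposited table holds log2 values that the authors had quantile normalized. Its columns have identical sorted values within 2 sets of 3 arrays, so it was normalized in 2 parts, and it served as an alternative only. The submitters' processing notes name R 3.0.2. All columns were matched to a sample by their names.

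Probes were named through the platform annotation: 34885 had 1 symbol, 18 had several and 10378 had none, and only the first were named. A gene was detected at 0 h where at least 1 probe had p under 0.05 on both arrays, and its brightest detected probe stood for it (of undetected genes, the brightest probe). Detection and levels at 0 h chose the genes described, so they carry no test.

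For the later times, probes detected on all 6 arrays (14091) were quantile normalized as log2 values, and the brightest probe of each named gene, and each unnamed probe, was kept (9984 features, 8149 of them named genes). The time points were fitted with limma 3.58.1 in R 4.3.3, with 3 residual degrees of freedom and Benjamini-Hochberg adjustment over all features, without a replicate block. A gene rose or fell at an adjusted p under 0.05. The fit was tested on simulated data with independent errors on each array, which does not cover deviations shared within an array set. Precision is limited by the 2 arrays per time point.

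The macrophage lists, the other lists and the genes described were chosen with earlier results of these data known. Named were the 20 highest signals and the 10 highest outside the housekeeping list and ribosomal protein genes, every identity gene, up to 6 of the brightest members of each other list, and every undetected member of the macrophage lists. Also named were every detected marker of other cell types, the 5 genes that differed most between the arrays, the 3 nearest the threshold on each side, and the 5 largest rises and falls at 48 h among the macrophage list genes fitted. Other list members given with values were chosen after their values were seen. Promoter sequences came from RefSeq with the GRCm38.p6 build.

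The alternatives were a detection threshold of 0.01, other rules for genes with several probes, detection on 1 array or on all 6, and other normalizations and background correction. They also included a filter on detection at 0 h only or none, blocks for replicate number and array set, a fold change of at least 2 and leaving out each array.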

Additional observations from a re-analysis of the deposited data

Results flagged for a closer look

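4 of the macrophage list genes passed the test at 12 h and 48 h in opposite directions, and also between 48 h and 12 h. Beside them 56 rose and 21 fell at both 12 h and 48 h. Opposite changes were not counted over all features, so the count of 4 is not read as a trait of the lists. The 4 genes were picked for these opposite signs, so the difference between 48 h and 12 h is large by that choice. It is given as a value only. Ccl9 (log2 change 0.449 at 12 h and −1.01 at 48 h) read 28777 and 17742 before particles, 26550 and 39537 by 12 h and 7291 and 12549 by 48 h. Its 48 h signals were below those of both other times on both arrays, and the difference between 48 h and 12 h was −1.46 on the log2 scale.

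Cd180 (0.394 and −0.812) read 1819 and 2772 at 12 h and 670 and 930 at 48 h, with a difference of −1.21. Dhx58, a helicase related to RIG-I (0.815 and −0.413), read 1194 and 1577 at 12 h and 415 and 554 at 48 h, with a difference of −1.23. The integrin chain Itgb5 moved the other way (−0.734 and 0.566). It read 585 and 712 at 12 h and 1075 and 1582 at 48 h, with a difference of 1.30. What separates Itgb5 from the other genes was not tested.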

How the results depend on the processing

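The number of genes detected at 0 h stayed within 1.5 times of 8554 with a threshold of 0.01 (7805), the brightest probe only (8551), detection on all 6 arrays (8149) and without replicate 1 or 2 (9022 and 9010). Only when every probe of a gene had to be detected did it fall outside, to 5158, and the count of macrophage list genes then went from 284 to 175, with scavenger and efferocytosis genes going from 11 to 3, lysosomal hydrolases from 32 to 17, iron genes from 17 to 9 and transcription factors from 26 to 13. With detection on all 6 arrays chemokines went from 10 to 6. Leaving out an array gave 291 to 296 of these. Of the 100 highest signals 94 to 100 were shared under the other scalings and with either array left out, and 55 where signals were averaged over a gene's probes. Counts at 12 h were the least stable. Of 267 macrophage list genes tested, 94 changed at 12 h, against 18 with scaling to the 75th percentile, 20 with a fold change of at least 2 and 156 with the array sets as a block. With the values the authors normalized, 0 changed at 12 h by limma, where 34 had an unadjusted p under 0.05. Those values were normalized in 2 sets of 3 arrays and were fitted without a block for the set. The median log2 change of the 267 at 12 h was 0.155 with them and 0.148 in the main fit. At 48 h 188 changed, against 125 with scaling to the 75th percentile, 79 with a fold change of at least 2 and 52 with the values the authors normalized. The fold criterion keeps fewer genes by construction, and the cause of the other shifts was not tested. Counts over all features moved under that scaling, the block and the values the authors normalized too, as given with the rises and falls above. Leaving out each array in turn gave 53 to 98 at 12 h and 165 to 188 at 48 h. The 10 genes with the largest changes among those 267 kept their direction under each alternative fit and passed the test in those on all 6 arrays. They were picked as the largest changes that passed the main fit, and the alternatives used the same arrays. Their passing is therefore no separate support.

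With the replicate number as a replicate block, 78 changed at 12 h and 176 at 48 h. Over all features 731 rose and 553 fell at 12 h in that fit, and 2450 rose and 2445 fell at 48 h. Deviations of same-numbered arrays correlated at −0.55 (0 h with 12 h), −0.56 (0 h with 48 h) and 0.65 (12 h with 48 h). The numbers therefore do not pair the 0 h arrays with the later ones. At 12 h and 48 h arrays with the same number are also of the same set. Arrays of the same set correlated at 0.55, 0.56 and 0.65 for these pairs of times. This restates the first values, since the deviations of 2 arrays from their mean mirror each other. Weak signals limit the calls: 15.9% of the detected genes lay under a signal of 200.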

Other observations

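Lists of specialised macrophages were detected in part at 0 h. Of 15 osteoclast genes 9 were detected. The proton pump subunit Tcirg1 (5043 on replicate 1 and 3294 on replicate 2) and Ostm1 (5323 and 3148), the regulator Nfatc1 (1817 and 1039), the fusion protein Dcstamp (1159 and 674) and the RANKL receptor Tnfrsf11a (619 and 490) led. Car2 (516 and 376), Clcn7 (422 and 371), Ctsk (293 and 227) and Mmp9 (149 and 142) followed. RAW 264.7 cells are known to form osteoclasts when given RANKL. Acp5, Calcr, Ocstamp, Atp6v0d2, Itgb3 and Oscar, among them genes of mature osteoclasts, were not detected on both arrays.

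Of 11 microglia genes 4 were detected (36.4%), under the 44.9% of all named genes. The fatty acid receptor Gpr84 (2619 and 1897) and Cx3cr1 (2188 and 1382) stood above Olfml3 (228 and 166) and Sall1 (212 and 198). Tmem119 and P2ry12 were not. Of 9 alveolar macrophage genes 0 were detected, with Marco, Pparg, Itgax and Siglecf among them. Of 11 genes of large peritoneal macrophages 3 were detected (27.3%), Icam2 at 499.7 and 406.1, and Cd93 and Timd4 near the limit. Of 10 genes of Kupffer cells 3 were detected (30.0%), Id3 at 517 and 467, Nr1h3 at 299 and 206, and Timd4.

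Of 15 genes of alternative activation 4 were detected (26.7%, beside 44.9% of all named genes). These were Tgm2 (486 and 376), Mgl2 (352 and 230), Cdh1 (151 and 141) and Clec10a (147 and 129). Arg1, Chil3, Retnla, Mrc1, Ccl17, Ccl22, Ccl24 and Fn1 were not detected on any of the 6 arrays.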
